A study of Mus musculus with 4 samples.

Results

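8 genes of the CD4/CD8 lineage circuit were followed through thymic iNKT cells of C57BL/6 and Hivep3-/- mice: the coreceptor genes Cd4, Cd8a and Cd8b1, the zinc-finger gene Zbtb7b (which encodes Th-POK), the Runx genes Runx1, Runx2 and Runx3, and Cbfb. They were taken by symbol, and all 8 were found among the 31053 genes of the tables. Single-cell RNA libraries of the 5′ droplet type had been prepared from untreated mice 8 to 9 weeks old, 2 C57BL/6 wild-type mice and 2 Hivep3-/- mice, with 1 mouse per library. Hivep3-/- mice lack Schnurri-3 in every cell and had been backcrossed to C57BL/6, and the sources used here do not say which exons of Hivep3 the allele lacks. Thymocytes binding the PBS57-loaded CD1d tetramer had been sorted and mixed in equal parts of CD44-low and CD44-high cells, so the share of each stage among the cells was set in part by the sort.

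CD4 and CD8 are the coreceptors of T cells. CD8 is built from an alpha chain (Cd8a) with a beta chain (Cd8b1), or from alpha chains alone. Conventional thymocytes carry both CD4 and CD8 and then keep only the one that matches their MHC ligand, and Th-POK and Runx3 stand at opposite ends of that choice. Th-POK restrains Runx3 and the CD8 genes in helper cells, and Runx proteins, each paired with the shared subunit CBFβ, silence Cd4 and Zbtb7b in cytotoxic cells. Mouse iNKT cells are selected at the double-positive stage and then differentiate under control of PLZF. They are CD4-positive or negative for both coreceptors, and cells carrying CD8 are rare among them in wild-type mice. Stage 0 cells are the earliest after selection, and iNKT1, iNKT2 and iNKT17 cells are effector types named for the cytokines they make.

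Each library gave 3651 to 7231 cells after filtering, with a median of 4596 to 6833 UMIs (counted transcript molecules) per cell, and pairs of libraries shared 18 to 43 barcodes. Hivep3 itself was still counted at 38.5 and 36.4 CPM (UMIs per 1000000) in C57BL/6 mice and 101 and 68.0 CPM in Hivep3-/- mice, so its level did not check the genotype. Xist was counted 14609 times in C57BL/6 replicate 1 and 4, 25 and 3 times in the other libraries, and 4 transcripts of the Y chromosome were absent in C57BL/6 replicate 1 and summed to 3568 to 4879 UMIs in the others. The mice of the C57BL/6 group therefore differed in sex-linked transcripts. For the 8 genes in whole classes, results that change without C57BL/6 replicate 1 are named as such. Calls of other genes are given without that check. Fits to single clusters, and to late and other iNKT1-like cells apart, were not rerun without that mouse. Clusters were called stage 0-like, cycling-like, iNKT2-like, iNKT17-like or iNKT1-like from markers, none of which was among the 8 genes, and the 8 genes were also left out of the clustering. Stage 0-like cells numbered 353 and 121 in C57BL/6 mice and 376 and 411 in Hivep3-/- mice, and iNKT1-like cells 2387 and 1654 against 2392 and 1908. Within iNKT1-like cells a late group with high Ccl5, Gzma and Tyrobp held 405 and 250 cells against 776 and 689. Values below are given in the order C57BL/6 replicates 1 and 2, then Hivep3-/- replicates 1 and 2, and are UMIs summed over the cells of a class in each library, given as CPM.

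The coreceptor genes lie on mouse chromosome 6 (GRCm38). Cd8a spans chr6:71373427-71379173 and Cd8b1 chr6:71322788-71337494, 35.9 kb apart on the plus strand, and Cd4 spans chr6:124864692-124888221 on the minus strand. Zbtb7b lies at chr3:89377644-89394776, Runx1 at chr16:92601466-92826149, Runx2 at chr17:44495987-44814797, Runx3 at chr4:135120652-135177990 and Cbfb at chr8:105170674-105217989. Runx3 is on the chromosome of Hivep3, 15.0 Mb away from it. Exons of Runx1, Runx2 and Zbtb7b overlap the antisense genes Gm26626, Runx2os1 and Gm15417. No source used here states whether strand was used in counting, and whether antisense reads entered their counts was not checked.

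Runx proteins bind the letters ACCACA, which read TGTGGT on the opposite strand, and the Runx genes carry these letters in their own promoters. RefSeq promoter windows of 300 bases (GRCm38.p6), 250 before and 50 after the transcription start, matched 6 of the 8 genes. The motif, searched on both strands, was found 2 times in the window of the upstream start of Runx1 and of Runx3 and 3 times in that of Runx2, against 1 or more times in 16.8% and 2 or more times in 1.81% of all 32851 windows. It was not found in the windows of Cd8a and Cbfb or in those of the downstream starts of Runx1 and Runx3, and it was found 1 time at the downstream start of Zbtb7b. An 18-base run, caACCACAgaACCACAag, was shared by the 3 Runx windows and stood in 4 windows in all, the other being that of Gm16225. It lay at bases 277 to 294 of the Runx1 window and 272 to 289 of the Runx2 window, after the start, and at bases 115 to 132 of the Runx3 window, before it. The 3 windows are shown because they hold what the Runx genes share beyond their symbol, and that of Cd8a, the member that rose most in Hivep3-/- cells, for comparison. Each is written 5′ to 3′ on the strand of its gene, with the motif in capitals, from chr16:92826025-92826324 (minus strand), chr17:44814578-44814877 (minus), chr4:135120395-135120694 (plus) and chr6:71373177-71373476 (plus).
Runx1: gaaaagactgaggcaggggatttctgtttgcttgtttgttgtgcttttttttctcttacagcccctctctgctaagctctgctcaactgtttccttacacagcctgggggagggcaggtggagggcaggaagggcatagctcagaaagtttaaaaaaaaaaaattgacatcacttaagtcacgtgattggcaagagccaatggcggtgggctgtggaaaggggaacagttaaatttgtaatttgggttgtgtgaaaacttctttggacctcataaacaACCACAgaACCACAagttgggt
Runx2: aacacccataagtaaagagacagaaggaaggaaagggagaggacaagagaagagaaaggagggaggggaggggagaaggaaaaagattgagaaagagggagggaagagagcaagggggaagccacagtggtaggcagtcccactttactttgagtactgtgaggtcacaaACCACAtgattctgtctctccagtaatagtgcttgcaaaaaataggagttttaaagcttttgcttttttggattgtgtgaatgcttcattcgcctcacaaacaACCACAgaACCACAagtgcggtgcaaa
Runx3: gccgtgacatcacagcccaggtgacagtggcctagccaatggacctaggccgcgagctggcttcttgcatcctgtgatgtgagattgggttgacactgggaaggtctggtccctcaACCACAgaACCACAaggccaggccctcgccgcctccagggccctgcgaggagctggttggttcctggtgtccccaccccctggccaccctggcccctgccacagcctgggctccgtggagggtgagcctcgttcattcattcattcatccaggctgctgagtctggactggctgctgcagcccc
Cd8a: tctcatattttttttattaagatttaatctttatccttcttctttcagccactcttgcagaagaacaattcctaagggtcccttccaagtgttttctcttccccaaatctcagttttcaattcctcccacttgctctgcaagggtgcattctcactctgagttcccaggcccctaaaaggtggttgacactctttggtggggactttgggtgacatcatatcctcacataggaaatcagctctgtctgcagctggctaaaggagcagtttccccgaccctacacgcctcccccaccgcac

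Each member had its own order over the classes, and these orders are descriptions without a test. Cd4 was highest in iNKT2-like cells in 4 of 4 libraries and lowest in iNKT17-like cells in 4 of 4, where it was counted at 9.86, 1.87, 3.65 and 0 CPM. Cd8a and Cd8b1 were highest in stage 0-like cells in 4 of 4 libraries, with ranges that did not overlap those of any other class. For Cd8a the remaining classes overlapped one another, while Cd8b1 came next in cycling-like cells in 4 of 4 libraries.

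**Figure D1:**
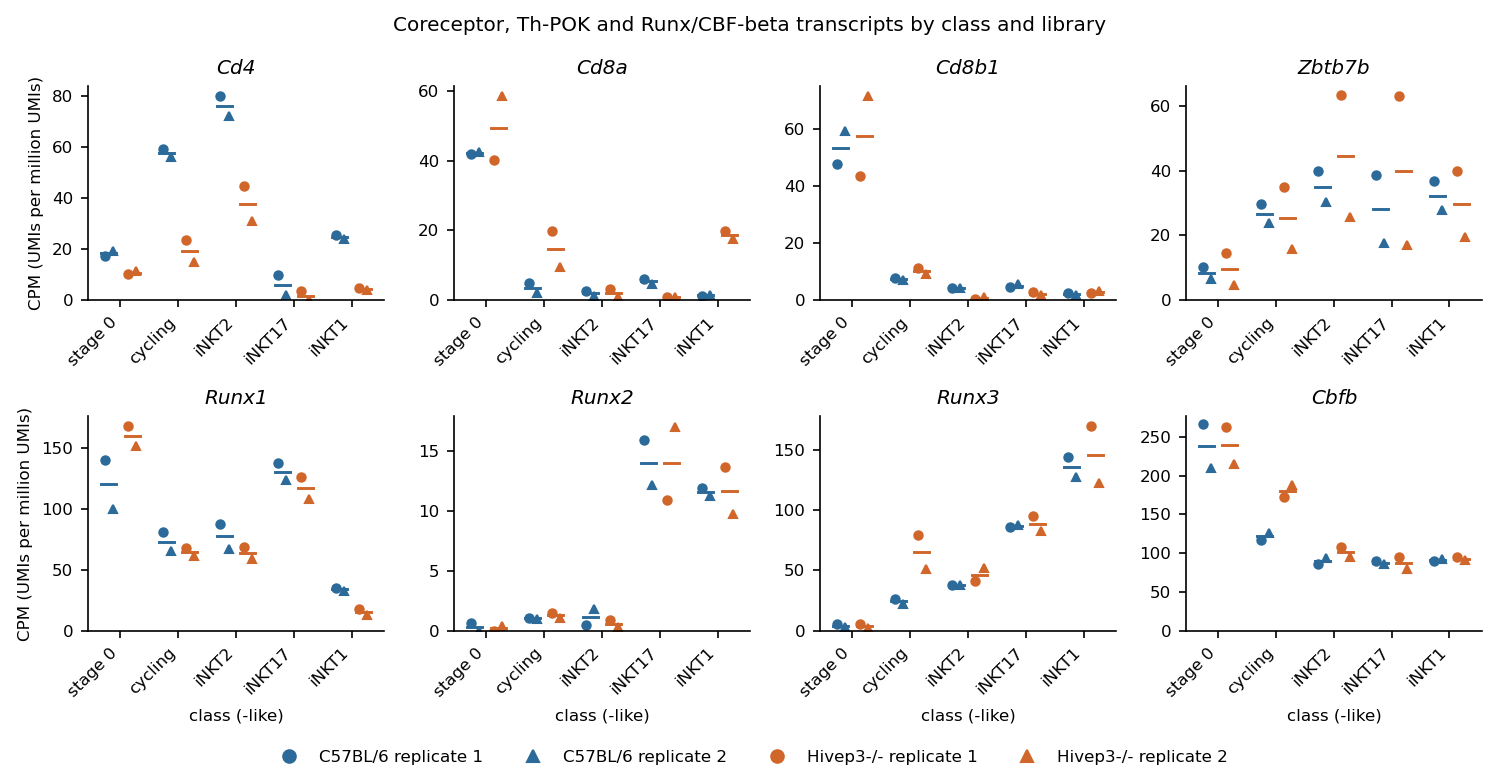
Level of each gene in CPM (linear axis) by class and library. Points are libraries, circles replicate 1 and triangles replicate 2, blue C57BL/6 and orange Hivep3-/-, and short lines are the mean of 2 libraries. Cd4 was lower in both Hivep3-/- libraries of every class but iNKT17-like, Cd8a lay higher in iNKT1-like cells, and Runx3 rose from stage 0-like to iNKT1-like cells in both genotypes.

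Cd4 was lower in Hivep3-/- iNKT cells. In iNKT1-like cells it was counted at 25.5 and 23.8 CPM in C57BL/6 mice and at 4.68 and 4.10 CPM in Hivep3-/- mice (227, 199, 76 and 48 UMIs). All 4 libraries separated by genotype, with each pair of mice close together. The log2 difference was -2.56 with an SE of 0.18 (adjusted p = 0.00189). This and every other adjusted p is from the quasi-likelihood test of edgeR, adjusted over all genes by the Benjamini-Hochberg method. In the class 3 of 8 members tested passed the threshold, Cd4, Cd8a and Runx1, against 0.58% of all genes tested, and the median log2 difference of the members was -0.06 against -0.00 for all genes.

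In cycling-like cells Cd4 stood at 59.1 and 56.2 CPM against 23.5 and 14.9 CPM, a log2 difference of -1.78 with an SE of 0.22 (adjusted p = 0.00799). There 2 of 7 members tested passed, Cd4 and Runx3, against 3.73% of all genes, with medians of 0.30 for the members and 0.03 for all genes. The Cd4 call was lost without C57BL/6 replicate 1 (log2 difference -1.75, adjusted p = 0.0971) and without C57BL/6 replicate 2 (-1.81, adjusted p = 0.0841). With no correction between libraries the class shrank to a Hist1h2ap cluster of 535 cells, in which Cd4 did not pass (-1.46, adjusted p = 0.0701). In iNKT2-like cells the values were 79.8, 72.3, 44.5 and 31.1 CPM, again with no overlap, but the log2 difference of -1.11 with an SE of 0.18 did not pass (adjusted p = 0.0733). In stage 0-like cells they were 17.4, 19.3, 10.1 and 11.3 CPM, resting on 15 to 28 UMIs per library, with a log2 difference of -0.88 and an SE of 0.34 (adjusted p = 0.498). None of the members passed in stage 0-like (7 tested), iNKT2-like (6) or iNKT17-like cells (5), where 0.361%, 0.297% and 0.0659% of all genes did, with member medians of -0.00, -0.15 and -0.08 against 0.02, 0.02 and 0.00 for all genes. At an unadjusted p under 0.05 these fits held 742, 824 and 425 genes. With no correction between libraries a Tnni1 and Htra3 cluster (1028 cells), unnamed with correction, was also named stage 0, and in that wider class the difference of Cd4 was -1.44 and passed (adjusted p = 0.0460).

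The genotype difference in Cd4 itself differed between classes. Compared with iNKT1-like cells in a single fit with the library as a block, it was 1.68 log2 units nearer to 0 in stage 0-like cells (SE 0.36, adjusted p = 0.00172) and 1.46 nearer in iNKT2-like cells (SE 0.19, adjusted p = 1.53e-05). For cycling-like cells the difference of 0.80 (SE 0.21) did not pass (adjusted p = 0.0604). Without C57BL/6 replicate 1 the stage 0-like value was 1.49 and no longer passed (adjusted p = 0.0585). In these 3 fits 3.69%, 3.96% and 5.51% of all genes passed, in the order stage 0-like, iNKT2-like and cycling-like.

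Shares of cells with a Cd4 UMI followed the levels. Each cell was thinned to 2000 UMIs, since depth differed between libraries (median of iNKT1-like cells 3493 to 6502 UMIs), and 75 to 502 shallower cells per library were left out. In iNKT1-like cells 5.12% (115 of 2247 cells, 95% Wilson interval 4.28 to 6.11) and 5.07% (82 of 1618, 4.10 to 6.25) of C57BL/6 cells held a Cd4 UMI, against 0.932% (22 of 2361, 0.616 to 1.41) and 0.951% (18 of 1892, 0.603 to 1.5) of Hivep3-/- cells. These intervals cover counting error only, and no interval of one genotype reached the other. Unthinned, the shares were 8.63%, 10.1%, 2.76% and 2.04%. iNKT17 cells are known to lack CD4, and in iNKT17-like cells the thinned shares were 0.909%, 0.806%, 0.758% and 0% (0 of 127 cells, which allows up to 2.36%), at medians of 5671 to 8245 UMIs before thinning. The Cd4 share of Hivep3-/- iNKT1-like cells was thus near that of a class that lacks the gene, a baseline of few positive cells. It was not even within these cells. No late Hivep3-/- iNKT1-like cell held a Cd4 UMI after thinning, as given below. The iNKT1-like cluster led by Fgl2, Rgs1 and Klrb1c gave 1.68% (17 of 1010, 1.05 to 2.68) and 1.75% (14 of 802, 1.04 to 2.91) in Hivep3-/- mice. Whether the remaining Cd4 counts are background was not tested.

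In cycling-like cells the Cd4-positive share was 10.9% (154 of 1408), 10.6% (49 of 462), 5.04% (13 of 258) and 1.41% (6 of 427), and in iNKT2-like cells it was 12.9%, 10.7%, 8.38% and 6.21%. Both Hivep3-/- libraries were below both C57BL/6 libraries in each of these classes, though in iNKT2-like cells the counting intervals of C57BL/6 replicate 2 (7.98 to 14.1) and Hivep3-/- replicate 1 (5.93 to 11.7) overlapped. Stage 0-like shares were 3.09%, 0.909%, 2.49% and 1.36%, with no order by genotype. The mean difference between genotypes was -4.15 percentage points in iNKT1-like, -7.55 in cycling-like and -4.48 in iNKT2-like cells. An exact two-sided permutation test gave p = 0.333 for each, the smallest that 2 against 2 mice allow.

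**Figure D2:**
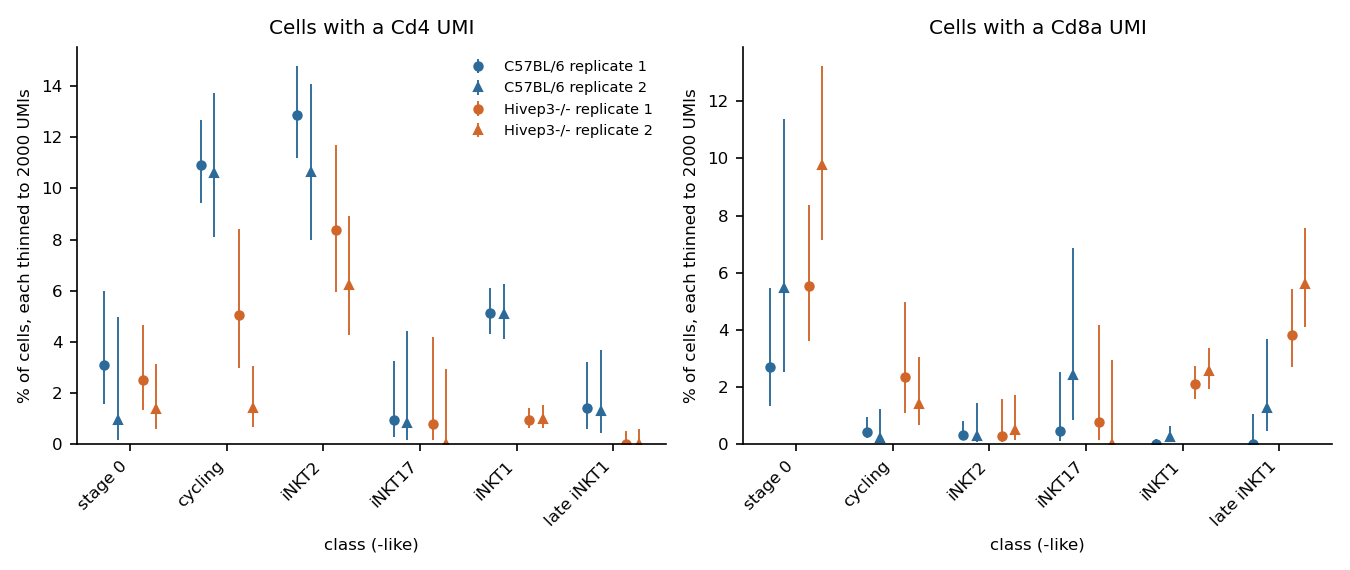
Share of cells (percent) with a Cd4 UMI (left) or a Cd8a UMI (right) by class and library after thinning each cell to 2000 UMIs. Bars are 95% Wilson intervals, which cover counting error only. Cd4-positive cells made up 5.12% and 5.07% of C57BL/6 but 0.932% and 0.951% of Hivep3-/- iNKT1-like cells, whereas Cd8a-positive cells made up 0% and 0.247% against 2.08% and 2.54%.

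The fall in Cd4 was seen in the clusters that make up the classes. Fits to single clusters, chosen after the data had been seen, called Cd4 lower in the Fgl2, Rgs1 and Klrb1c cluster of iNKT1-like cells (29.5, 29.0, 7.89 and 7.15 CPM, log2 difference -2.04) and in the Ccl1, Gzmb and Gzmc cluster (25.1, 23.2, 4.21 and 4.69 CPM, -2.52), where 0.349% and 0.408% of all genes passed. It was also called in clusters that had no name or lay outside the 5 classes, among them a Klra3 and Cxcr3 cluster (52.5, 50.4, 15.8 and 9.72 CPM, -2.06) and an interferon-response cluster (34.2, 33.0, 9.63 and 3.92 CPM, -2.25), where 0.362% and 0.566% of all genes passed. Late iNKT1-like cells had the least Cd4 among iNKT1-like cells in every library, at 9.27, 4.39, 1.01 and 0.248 CPM, and there the difference of -3.39 did not pass (adjusted p = 0.101), in a fit where 0.302% of all genes did; in their Ccl5, Gzma and Tyrobp cluster alone 0.313% did. No late Hivep3-/- cell held a Cd4 UMI after thinning (0 of 759 and 0 of 680 cells, which allow up to 0.395% and 0.441%). In the S-phase cluster with Hist1h2ap the values were 39.9, 39.6, 39.6 and 12.4 CPM and the log2 difference of -1.12 did not pass, since Hivep3-/- replicate 1 lay with the C57BL/6 libraries.

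Cd8a rose in Hivep3-/- iNKT1-like cells. Its level was 1.24 and 1.55 CPM in C57BL/6 mice (11 and 13 UMIs) and 19.9 and 17.4 CPM in Hivep3-/- mice (323 and 204 UMIs). The log2 difference was 3.66 with an SE of 0.25 (adjusted p = 0.00169), and neither Hivep3-/- library came near the C57BL/6 range. It was called in late iNKT1-like cells alone (2.14, 8.79, 35.3 and 37.0 CPM, log2 difference 2.73) and in the other iNKT1-like cells alone (1.07, 0.415, 13.2 and 7.17 CPM, 3.66), where 0.509% of all genes passed. In the Ccl1, Gzmb and Gzmc cluster alone the difference of 2.95 did not pass (adjusted p = 0.0805).

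In stage 0-like cells, where thymocytes have just left the double-positive stage, Cd8a did not separate by genotype. It stood at 41.9 and 42.4 CPM in C57BL/6 mice and 40.1 and 58.5 CPM in Hivep3-/- mice (log2 difference 0.11, SE 0.26, adjusted p = 0.948). The genotype difference of stage 0-like cells was 3.59 log2 units below that of iNKT1-like cells (difference -3.59, SE 0.35, adjusted p = 1.64e-10), so the rise was shown to differ between these classes. It also differed for iNKT2-like cells (-3.78, SE 0.56, adjusted p = 0.000135), where Cd8a was at no more than 3.27 CPM in any library; without C57BL/6 replicate 1 that call was lost (-2.92, adjusted p = 0.0793). In cycling-like cells Cd8a was at 4.82 and 1.98 CPM against 19.8 and 9.51 CPM, with a log2 difference of 1.80 (SE 0.47) that did not pass (adjusted p = 0.0893). Of the 82 UMIs of Cd8a in cycling-like cells of C57BL/6 replicate 1, 76 came from the Hist1h2ap cluster, in which the values were 27.8, 0.76, 6.26 and 17.3 CPM and the direction was the other way (-0.34).

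Cd8b1, the beta chain, passed the test between genotypes in no class. In iNKT1-like cells it was at 2.47 and 1.67 CPM against 2.52 and 3.33 CPM, a log2 difference of 0.41 with an SE of 0.38 (adjusted p = 0.879), and the 2 genotypes nearly met. In stage 0-like cells it was at 47.7, 59.1, 43.3 and 71.4 CPM with a log2 difference of 0.01. In iNKT2-like cells 43 and 17 UMIs were counted in C57BL/6 mice and 2 and 4 in Hivep3-/- mice, a log2 difference of -2.43 (SE 0.52) that did not pass (adjusted p = 0.159), although it differed from that of iNKT1-like cells by -2.86 (SE 0.64, adjusted p = 0.00871).

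Cells with a Cd8a UMI were few in C57BL/6 iNKT1-like cells and formed a small group in Hivep3-/- ones. After thinning they numbered 0 of 2247 (which allows up to 0.134%) and 4 of 1618 (0.247%, interval 0.0962 to 0.634) in C57BL/6 libraries, against 49 of 2361 (2.08%, 1.57 to 2.73) and 48 of 1892 (2.54%, 1.92 to 3.35) in Hivep3-/- libraries. iNKT2-like cells, which should lack the gene, gave 0.254% to 0.477% over the 4 libraries, below the Hivep3-/- shares and not below the C57BL/6 ones. iNKT17-like cells, also a type that should lack it, gave 1 of 220 (0.455%), 3 of 124 (2.42%, interval 0.826 to 6.87), 1 of 132 (0.758%) and 0 of 127, so that of C57BL/6 replicate 2 reached the iNKT1-like shares of Hivep3-/- mice, on 3 cells. The UMIs were concentrated in few cells. Without thinning, 104 and 87 Hivep3-/- iNKT1-like cells held Cd8a, 38 and 27 of them with 3 or more UMIs, up to 19 and 14 in 1 cell. The corresponding C57BL/6 counts were 5 and 9 cells, 2 and 1 of them with 3 or more UMIs, up to 3.

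In late iNKT1-like cells the Cd8a-positive share reached 3.82% (29 of 759) and 5.59% (38 of 680) in the Hivep3-/- libraries against 0 of 362 (which allows up to 0.829%) and 1.27% (3 of 237). The beta chain was seldom counted with it at this depth. Among the Cd8a-positive iNKT1-like cells of Hivep3-/- mice, 45 of 49 and 45 of 48 had no Cd8b1 UMI after thinning, a depth at which few cells show a gene of this level, so lack of Cd8b1 in a cell was not detectable. After thinning no iNKT1-like cell of any library held both Cd4 and Cd8a. Cells positive for either gene were so few that this can occur even if the 2 genes are unrelated, so it does not show that they exclude each other. In stage 0-like cells the Cd8a-positive shares were 2.70%, 5.45%, 5.52% and 9.78%, and the intervals of C57BL/6 replicate 2 (2.52 to 11.4) and Hivep3-/- replicate 2 (7.15 to 13.2) overlapped. Cd8a-positive stage 0-like cells were shallower than Cd8a-negative ones before thinning (medians of 3166, 2406, 3751 and 3608 UMIs against 4397, 5971, 6009 and 6035), and the part of this in their Cd8a was not tested. T cell receptor beta segments that pair with the iNKT alpha chain were dominant in 6 of 7, 3 of 6, 18 of 20 and 30 of 36 of them. These shares (85.7%, 50.0%, 90.0% and 83.3%) were below those of Cd8a-negative cells in each library (90.7%, 96.2%, 92.7% and 91.6%). Whether other thymocytes were among them was not tested.

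**Figure D3:**
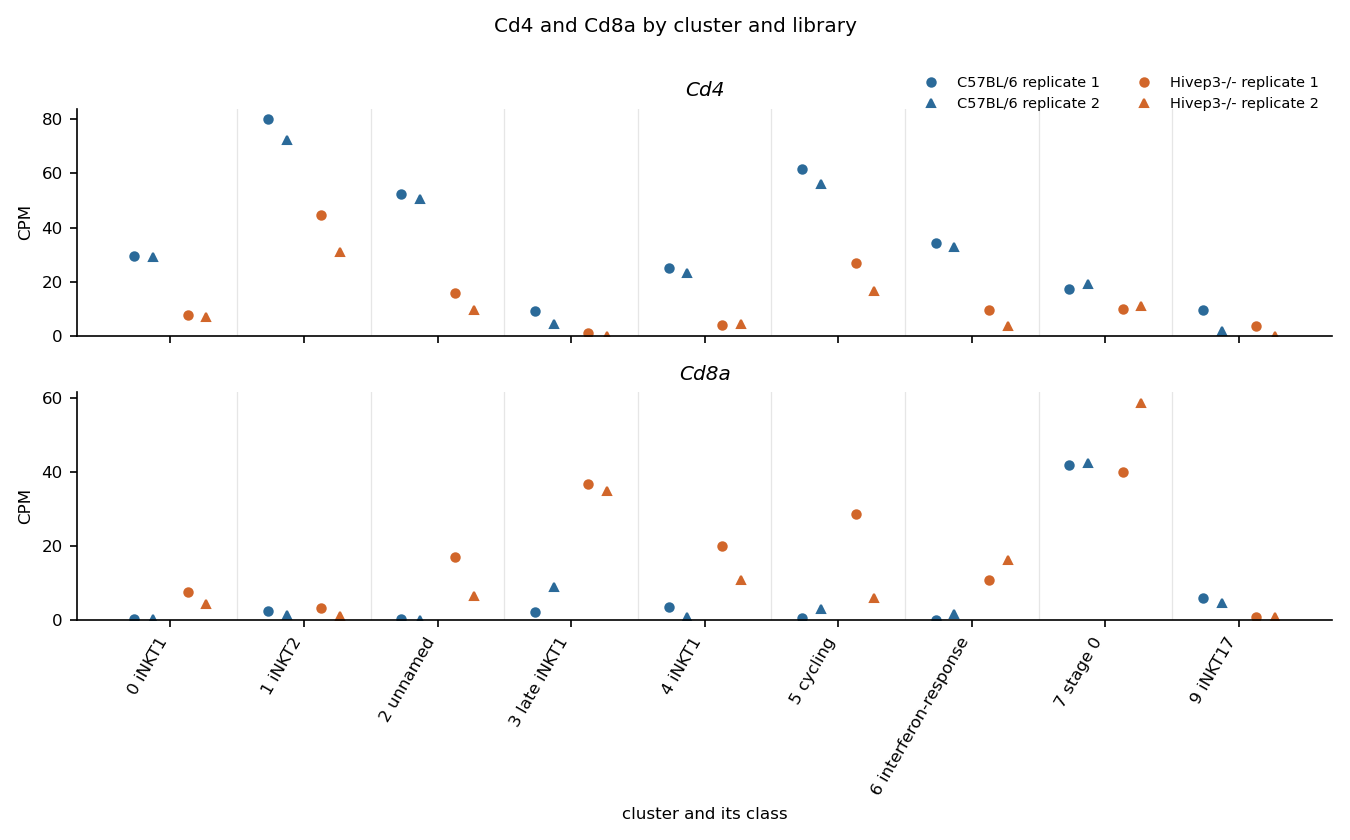
Cd4 (top) and Cd8a (bottom) in CPM (linear axes) in the 9 clusters with at least 50 cells in every library, named by number and class. Circles are replicate 1, triangles replicate 2, blue C57BL/6 and orange Hivep3-/-. In cluster 0 Cd4 was at 29.5 and 29.0 against 7.89 and 7.15 CPM, and in cluster 3, late iNKT1-like cells, Cd8a was at 2.15 and 8.82 against 36.7 and 34.8 CPM, while in cluster 7, stage 0-like cells, Cd8a did not separate by genotype.

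Runx1, which acts with CBFβ in early thymocytes and is required for iNKT cells to form, was lower in Hivep3-/- iNKT1-like cells. It was at 35.2 and 32.5 CPM in C57BL/6 mice and at 17.8 and 12.9 CPM in Hivep3-/- mice, with no overlap (log2 difference -1.22, SE 0.17, adjusted p = 0.0323). The call was lost without C57BL/6 replicate 1 (-1.15, adjusted p = 0.241) or without C57BL/6 replicate 2 (-1.28, adjusted p = 0.163). The difference lay in the iNKT1-like cells outside the late group (38.4, 34.7, 16.9 and 14.1 CPM, -1.33). Late cells, at 17.8, 18.4, 20.1 and 10.7 CPM, overlapped between genotypes and gave -0.30, which did not pass (adjusted p = 0.963).

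In the other classes Runx1 did not pass the test. Stage 0-like cells had 140.5 and 100.2 CPM against 168 and 152 CPM, a log2 difference of 0.26 (SE 0.18, adjusted p = 0.763), and cycling-like and iNKT2-like cells gave -0.34 and -0.38 (adjusted p = 0.321 and 0.582). Against the genotype difference of iNKT1-like cells, those of stage 0-like (1.47, SE 0.17, adjusted p = 2.66e-08), cycling-like (0.88, SE 0.14, adjusted p = 0.00996) and iNKT2-like cells (0.81, SE 0.15, adjusted p = 0.00119) all differed. Without C57BL/6 replicate 2 the cycling-like value was 0.78 and no longer passed (adjusted p = 0.0602). Over the classes, Runx1 was lowest in iNKT1-like cells in 4 of 4 libraries, while its stage 0-like and iNKT17-like ranges (100.2 to 168 and 108 to 137 CPM) overlapped.

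Runx3, the Runx gene of cytotoxic cells, had the reverse order of Runx1 at its ends. It was near absent in stage 0-like cells (2 to 14 UMIs per library, 2.42 to 5.66 CPM), stood at 22.4 to 79.7 CPM in cycling-like and 37.7 to 51.8 CPM in iNKT2-like cells, which overlapped, and reached 82.7 to 94.9 CPM in iNKT17-like and 123 to 169.5 CPM in iNKT1-like cells. In iNKT1-like cells, where Cd8a rose and Cd4 fell, Runx3 was at 144 and 128 CPM against 169.5 and 123 CPM (log2 difference 0.02, SE 0.15, adjusted p = 0.991), the 2 genotypes overlapping. The share of iNKT1-like cells with a Runx3 UMI after thinning was 25.6%, 23.2%, 28.1% and 21.3%.

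Runx3 rose in cycling-like Hivep3-/- cells. Its values were 26.5 and 22.4 CPM against 79.7 and 51.3 CPM, a log2 difference of 1.24 with an SE of 0.22 (adjusted p = 0.0294), and 1.2 above that of iNKT1-like cells (SE 0.13, adjusted p = 0.00114). It was called in the Ung, Il13 and Hells cluster of cycling cells (28.2, 21.7, 76.8 and 61.9 CPM, 1.31) and in the Ccnb2 cluster (25.6, 21.6, 65.1 and 60.7 CPM, 1.30) but not in the Hist1h2ap cluster (0.63, adjusted p = 0.367), against 3.33%, 2.65% and 3.3% of all genes. The call for all cycling-like cells was lost without C57BL/6 replicate 1 (1.36, adjusted p = 0.200) and without C57BL/6 replicate 2 (1.13, adjusted p = 0.254). In the Hist1h2ap cluster that was the whole class with no correction between libraries it did not pass either (1.38, adjusted p = 0.108). Markers of effector types moved with it in these cells. The 11 iNKT1 markers, all detected, summed to 501 and 543 CPM in C57BL/6 mice and 2303 and 1617 CPM in Hivep3-/- mice, the 7 late iNKT1 markers to 116 and 178 against 1649 and 633 CPM, and the 8 iNKT2 markers to 1583 and 1428 against 823 and 676 CPM. The part of this in the cycling-like differences of Runx3, Cd4 and Cd8a was not tested.

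Runx2 was counted in iNKT17-like cells (15.9, 12.2, 10.95 and 17.1 CPM) and iNKT1-like cells (11.9, 11.2, 13.7 and 9.74 CPM), whose ranges overlapped, and at no more than 1.81 CPM in any library of the other classes. Its genotype differences were -0.08 (SE 0.40) in iNKT17-like and -0.06 (SE 0.20) in iNKT1-like cells. Cbfb was highest in stage 0-like cells (267, 211, 263 and 216 CPM) and next in cycling-like cells (117, 126, 172 and 189 CPM) in 4 of 4 libraries, and the 3 effector classes overlapped between 80.0 and 108 CPM. Its genotype difference did not pass in any class, the largest being 0.41 (SE 0.14, adjusted p = 0.167) in cycling-like cells, where the 2 genotypes did not overlap. That difference was 0.45 above the one of iNKT1-like cells (SE 0.11, adjusted p = 0.0485), a call that was lost without C57BL/6 replicate 1 (0.39, adjusted p = 0.338), without C57BL/6 replicate 2 (0.47, adjusted p = 0.167) and without Hivep3-/- replicate 2 (0.37, adjusted p = 0.0916).

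Zbtb7b passed the test in no class, and the 2 Hivep3-/- mice lay farther apart than the genotypes in each of the 5 classes. In iNKT1-like cells it was at 36.9 and 27.7 CPM in C57BL/6 mice and 40.0 and 19.4 CPM in Hivep3-/- mice (log2 difference -0.21, SE 0.29). In iNKT2-like cells, the class where it was highest in 4 of 4 libraries, it was at 39.9, 30.2, 63.3 and 25.6 CPM (0.21, SE 0.34), and in stage 0-like cells, the class where it was lowest in 4 of 4, at 10.3, 6.42, 14.6 and 4.84 CPM (0.00, SE 0.50). Replicate 2 was below replicate 1 in both genotypes in all 5 classes. With 2 mice a genotype, a difference of this size was not detectable against that spread.

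**Figure D4:**
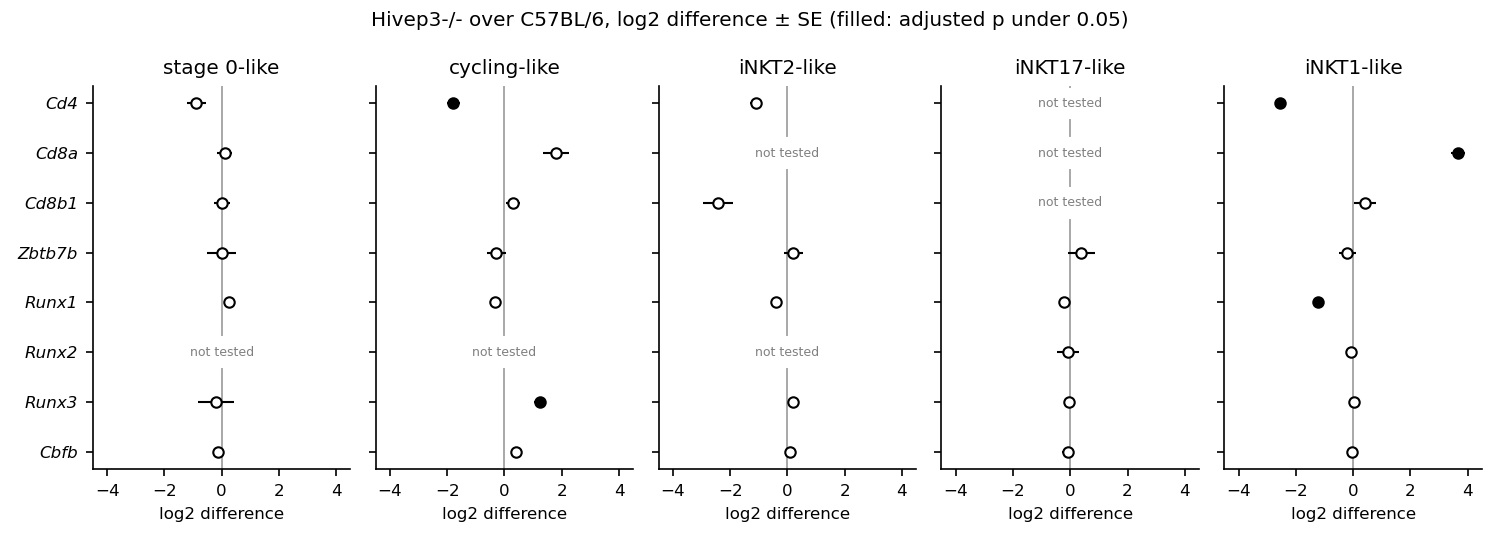
Log2 difference of Hivep3-/- over C57BL/6 for each gene (rows) in each class (panels), with bars of 1 SE from edgeR. Filled points passed an adjusted p of 0.05 and open points did not, and genes with too few UMIs were not tested. Cd4 (-2.56), Cd8a (3.66) and Runx1 (-1.22) passed in iNKT1-like cells and Cd4 (-1.78) and Runx3 (1.24) in cycling-like cells.

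Over all kept cells, without classes, Cd4 was at 52.9 and 42.7 CPM against 12.3 and 9.93 CPM (log2 difference -2.20, adjusted p = 0.00793) and Cd8a at 4.46 and 3.02 CPM against 17.9 and 14.9 CPM (2.02, adjusted p = 0.0273), and these 2 of 8 members passed against 0.765% of all genes. Fewer cells of a type and less RNA per cell cannot be told apart in these sums. The Cd8a call was lost without C57BL/6 replicate 1 (2.34, adjusted p = 0.0553), without Hivep3-/- replicate 1 (1.91, adjusted p = 0.162) or without Hivep3-/- replicate 2 (2.09, adjusted p = 0.0645), and the Cd4 call without Hivep3-/- replicate 1 (-2.34, adjusted p = 0.0540).

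Whether cells with a Cd4 UMI differ in their regulators was asked within each library. The 115, 82, 22 and 18 Cd4-positive iNKT1-like cells were compared with the Cd4-negative ones of the same library, with Cd4 left out. In Hivep3-/- mice the Cd4-positive share of these cells was near that of iNKT17-like cells, as given above. Whether the Cd4 of their 22 and 18 cells is background was not tested. None of the members passed, against 0.285% of all genes. Runx3 stood at 126, 109.8, 250 and 83.3 CPM in Cd4-positive and 153, 141, 173 and 123 CPM in Cd4-negative cells, lower in 3 of 4 libraries (log2 difference -0.30, SE 0.21, adjusted p = 0.976). Zbtb7b gave -0.14 (SE 0.41), Runx1 0.06 and Cbfb -0.06. Cd8a was counted 0 times in the Cd4-positive cells of all 4 libraries, too few cells at this depth to show its lack. In 169, 42, 30 and 26 Cd4-positive iNKT2-like cells no member passed either, against 0.0344% of all genes. There Zbtb7b was at 71.0, 59.5, 133 and 0 CPM in Cd4-positive against 38.5, 31.2, 64.0 and 21.6 CPM in Cd4-negative cells, higher in 3 of 4 libraries, with a log2 difference of 0.77 (SE 0.32, adjusted p = 0.999). The library at 0 held 26 Cd4-positive cells thinned to 2000 UMIs each, which is too few molecules to separate 0 from its Cd4-negative level.

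Of the genes linked to Runx3 in cytotoxic cells, 3 of the 5 tested were lower in Cd4-positive iNKT1-like cells, against 0.285% of all genes called in either direction. Late cells held the least Cd4 among iNKT1-like cells, and the part of this in the 3 calls was not tested. They were Ifng, the interferon-γ gene (log2 difference -0.83, adjusted p = 0.0201), Itgae, which encodes an integrin of tissue-resident T cells (-0.74, adjusted p = 0.0381), and Gzmb, which encodes granzyme B (-0.56, adjusted p = 0.0167).

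The Cd8a-positive iNKT1-like cells of Hivep3-/- mice, a comparison added after the data had been seen, differed in 2 of the members. The 49 and 48 cells with a Cd8a UMI after thinning were compared with 2312 and 1844 Cd8a-negative ones of the same library. Full counts were summed, in a fit of 4 sums from 2 mice. With so few sums the fit takes its spread largely from all genes together. Its p-values, here and for late cells alone, therefore say little about the spread between mice. Without thinning 104 and 87 iNKT1-like cells of these libraries held Cd8a, so the Cd8a-negative cells include some with a Cd8a UMI in their full counts. Cd8b1, which encodes the partner chain, was at 31.7 and 62.1 CPM against 1.83 and 1.76 CPM (12 and 19 UMIs against 29 and 20), a log2 difference of 4.63 with an SE of 0.56 (adjusted p = 1.22e-12). Zbtb7b was at 5.28 and 0 CPM against 40.9 and 19.97 CPM (2 and 0 UMIs against 648 and 227), a log2 difference of -3.42 with an SE of 0.65 (adjusted p = 6.55e-05). Over all genes 1.08% passed in this fit.

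Runx1 was counted 1 time in the Cd8a-positive cells of each mouse, at 2.64 and 3.27 CPM against 18.2 and 13.2 CPM, and did not pass (log2 difference -2.43, SE 0.82, adjusted p = 0.162). Cd4 was counted 0 times in them against 75 and 48 times in the Cd8a-negative cells (adjusted p = 0.602), a depth at which its lack could not be shown. Runx3 was close to equal, at 156 and 108 CPM against 169.9 and 123 CPM (-0.14, SE 0.17), and so was Cbfb (-0.19, SE 0.21). The Cd8a-positive cells were more often in the late group, 59.2% and 79.2% of them against 31.6% and 34.8% of the Cd8a-negative ones. Among late cells alone the Cd8b1 call held (2.92, adjusted p = 0.00570, against 0.278% of all genes), and that of Zbtb7b did not (5.11 and 0 CPM against 24.2 and 15.6 CPM, -3.03, adjusted p = 0.511).

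**Figure D5:**
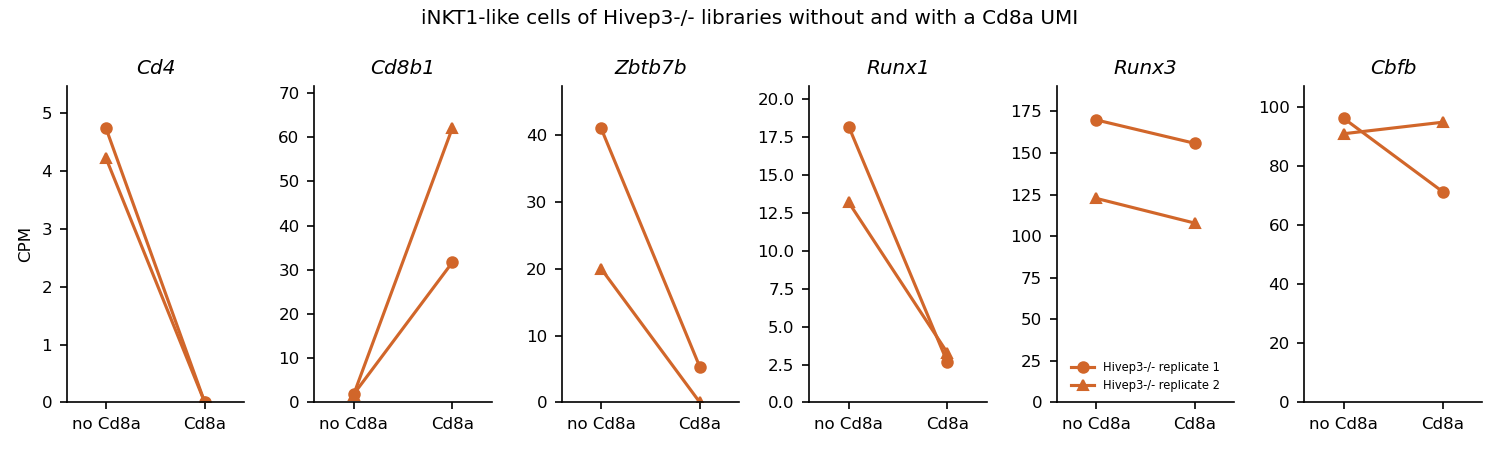
Level in CPM (linear axes that start at 0 and differ between panels) of 6 of the genes in iNKT1-like cells of the 2 Hivep3-/- libraries without (left) and with (right) a Cd8a UMI. Lines join the cells of 1 library, circles replicate 1 and triangles replicate 2. Cd8b1 was higher (31.7 and 62.1 against 1.83 and 1.76) and Zbtb7b lower (5.28 and 0 against 40.9 and 19.97) in Cd8a-positive cells, and Runx3 differed little.

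Several other measures were taken of these Cd8a-positive cells. The T cell receptor segments that pair with the iNKT alpha chain were dominant in 46 of 49 cells (93.9%) and 45 of 47 cells (95.7%) with a Trbv count, against 94.6% and 92.8% of the Cd8a-negative cells. The 5% of cells with the highest doublet scores took in 6.12% and 2.08% of them against 5.58% and 4.77%, and their median depth was 7072 and 6153 UMIs against 6520 and 5776. The summed iNKT1 markers were at 8611 and 9580 CPM against 8449 and 8848 CPM. The sum of the 7 late iNKT1 markers was higher, at 9379 and 13657 CPM against 6656 and 6836 CPM, but the list was split. Ccl5 (5917 and 9570 against 3213 and 3196 CPM), Fcer1g and Ly6c2 were higher in both libraries. Gzma (108 and 271 against 377 and 356 CPM), Gzmb (240.3 and 137 against 821 and 909 CPM) and Klre1 were lower in both, and Klrk1 went both ways. Among late cells alone Gzma was at 194 and 356 against 943 and 966 CPM. The summed 7 markers of mature conventional T cells were higher, at 697 and 706 CPM against 438 and 345 CPM, with 3 and 2 of the 7 at 0 in the Cd8a-positive cells. Among late cells alone the conventional list was at 889.6 and 793 CPM against 826 and 612 CPM. The part of this in the result was not tested.

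In all, 7 of the 34 other circuit genes tested differed between Cd8a-positive and Cd8a-negative cells, against 1.08% of all genes (0.278% among late cells alone). The median log2 difference of the list was -0.07. Among late cells alone, of which Cd8a-positive cells held a larger share, 1 of 34 passed, Gzmb (-1.55, adjusted p = 6.66e-20), and the calls of the other 6 were lost. Zbtb16, which encodes PLZF, the factor that gives iNKT cells their effector program, was at 7.92 and 6.53 CPM against 33.6 and 31.4 CPM (-2.15, adjusted p = 0.00332). Cd40lg and Icos, genes of helper function, were lower (-1.53 and -0.83, adjusted p = 2.92e-07 and 0.0372), as was Il7r, the IL-7 receptor (-0.36, adjusted p = 0.0424). Gzmb fell by 2.16 on the log2 scale (240.3 and 137 CPM against 821 and 909 CPM, adjusted p = 1.13e-43). Tcf7, which encodes TCF-1, a factor of naive and memory T cells, rose by 0.87 (adjusted p = 0.000327), and Ifng by 0.57 (adjusted p = 0.0297), with 100.3 and 339.8 CPM against 81.2 and 206 CPM.

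The 37 other genes of the circuit, listed as inducers of Zbtb7b and helper-side factors, repressors and Runx cofactors, the IL-7 axis, Lck, cytotoxic genes linked to Runx3 and helper genes, held few calls between genotypes. Of those named here, Lef1, Zbtb16, Icos, Ifng and Gzmb were also among the markers used to name classes. In iNKT1-like cells 2 of 35 tested passed, against 0.58% of all genes, with a median log2 difference of -0.06. Lef1, a partner of TCF-1 upstream of Zbtb7b, was at 57.9 and 47.6 CPM against 22.9 and 23.3 CPM (-1.27, adjusted p = 0.0222). Eomes, a T-box gene of memory CD8 cells, was counted 1 and 0 times in C57BL/6 mice and 65 and 32 times in Hivep3-/- mice (adjusted p = 0.0260). It passed neither in late iNKT1-like cells nor in the other iNKT1-like cells fitted alone. Late cells were a larger part of the class in Hivep3-/- mice, and the part of this in the Eomes difference was not tested.

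In cycling-like cells 3 of 34 tested passed, against 3.73% of all genes, with a median of 0.30. Icos was at 565 and 523 CPM against 158 and 124 CPM (-2.12, adjusted p = 0.000724), and Satb1, a chromatin organizer needed for Cd4, Cd8 and Zbtb7b expression in thymocytes, at 206 and 226 CPM against 119 and 68.1 CPM (-1.39, adjusted p = 0.0223). Prf1, which encodes perforin, rose from 1.47 and 1.27 CPM to 11.1 and 4.67 CPM (2.26, adjusted p = 0.0489). In stage 0-like cells 1 of 30 passed, against 0.361% of all genes. It was Zbtb16, at 214 and 179 CPM against 72.8 and 72.6 CPM (-1.57, adjusted p = 0.00299). In iNKT2-like cells 1 of 33 passed, Ifng (19.7 and 13.2 against 1.78 and 1.83 CPM, -3.29, adjusted p = 0.0136), and in iNKT17-like cells none of 30. Of all genes 0.297% and 0.0659% passed in these 2 classes. Gata3, Tox, Myb and Bcl11b, which induce or support Zbtb7b, were tested in all 5 classes and passed in none.

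Genes whose pattern over the 20 sums of class and library was most like that of a member were found by Pearson's r on log2(CPM + 1) among the 5308 genes whose mean reached 20 CPM. These points share libraries and depth, so the values are descriptions. Runx3 was most like Icam1 (r = 0.979), Tpst2 (0.975) and Ahnak (0.965), and Runx1 most like Camk4 (0.970), Ap3s1 (0.906) and Cnn3 (0.895). Runx2 was most like Diaph1 (0.956), Cbfb most like Cisd2 (0.970) and Cd8b1 most like Ube2d3 (0.954). Cd4 was most like Drosha (0.909), Zbtb7b most like Ehmt2 (0.910) and Cd8a most like Ntmt1 (0.851), looser matches than those of Runx1 and Runx3. Among the members Runx3 ran opposite to Cd8b1 (r = -0.859) and to Cbfb (-0.809).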

How the data were processed

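Cell Ranger 3.1.0 and the mm10 build were named in the submitters' processing notes and the study's methods, and the authors deposited filtered matrices of UMI counts per gene and barcode, 1 per mouse, with no normalization. Positions are from GENCODE vM21 (GRCm38, the same build), whose gene IDs match those of the tables. Barcodes per library numbered 8374, 4243, 5019 and 4643. Cells with 500 or more and fewer than 4100 genes, at least 1000 UMIs and under 6% mitochondrial counts were kept (7231, 3651, 4598 and 4167), holding 45022744, 25518692, 34179266 and 31221520 UMIs of the 48291764, 31381738, 40096012 and 35718171 in all barcodes.

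Counts were normalized in Seurat 5.3.0 (R 4.3.3), and 2000 variable genes, leaving out the 8 members, T cell receptor segments, sex-linked genes and genes the study named as differing, were reduced to 30 components, corrected between libraries with mutual nearest neighbours (20 neighbours) and clustered at resolution 0.8. A cluster was named from fixed markers where 3 of them stood among its top 20 genes by fold, or 2 with at least 3 markers above 1.5-fold, a rule set after the data were seen. A cluster led by Klra3 and Cxcr3 (858, 582, 370 and 268 cells), one led by Tnni1 and Htra3 (197, 32, 259 and 336) and a shallow one (84, 5, 16 and 3) stayed unnamed, and 16 cells with B cell genes were taken out. The doublet caller marked 0, 4, 1 and 5 cells and so did not work, and removing the 5% of cells with the highest scores was run as an alternative.

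UMIs were summed per library and class, each mouse being 1 replicate, and tested in edgeR 4.0.16 (quasi-likelihood, its low-count filter, TMM scaling, Benjamini-Hochberg over all genes, threshold 0.05), with DESeq2 1.42.0 as an alternative. Differences of genotype differences between classes, and Cd4-positive against Cd4-negative cells, were fitted with the library as a block. Shares were taken after thinning cells to 2000 UMIs, with 95% Wilson intervals and, for 0 cells, a limit of 3 counts. On simulated counts for iNKT1-like cells (10525 genes), the fit recovered 66% of genes changed by 1 log2 unit and 94% of those changed by 2, and called 17 unchanged genes. For stage 0-like cells (8870 genes) it recovered 39% and 94%. Genes with few UMIs were not among those changed. These shares therefore do not cover sparse members, such as Cd4, Runx3 and Zbtb7b in stage 0-like cells or Cd8b1 in iNKT2-like cells. Members and gene lists were chosen with earlier results of these data known. Text values are given for every member, and for circuit genes that passed the test. Fits to single clusters and to Cd8a-positive cells were added after the data were seen.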

Additional observations from a re-analysis of the deposited data

Results flagged for a closer look

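Genotype differences that differed between classes were picked out for the following members, each as the log2 difference in the named class minus that in iNKT1-like cells, from edgeR with the library as a block. In stage 0-like cells Cd8a gave -3.59 (adjusted p = 1.64e-10), Cd4 1.68 (adjusted p = 0.00172) and Runx1 1.47 (adjusted p = 2.66e-08). Cd4 and Runx1 were lower in Hivep3-/- iNKT1-like cells and Cd8a was higher, and none of the 3 passed between genotypes in stage 0-like cells themselves. Without C57BL/6 replicate 1 the value of Cd4 was 1.49 and did not pass (adjusted p = 0.0585).

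In cycling-like cells Runx3 gave 1.2 (adjusted p = 0.00114), Runx1 0.88 (adjusted p = 0.00996) and Cbfb 0.45 (adjusted p = 0.0485). Runx3 was at 26.5, 22.4, 79.7 and 51.3 CPM in these cells. Runx1 no longer passed without C57BL/6 replicate 2 (0.78, adjusted p = 0.0602), and Cbfb did not pass without C57BL/6 replicate 1 (0.39, adjusted p = 0.338), C57BL/6 replicate 2 (0.47, adjusted p = 0.167) or Hivep3-/- replicate 2 (0.37, adjusted p = 0.0916).

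In iNKT2-like cells Cd8a gave -3.78 (adjusted p = 0.000135), Cd8b1 -2.86 (adjusted p = 0.00871), Cd4 1.46 (adjusted p = 1.53e-05) and Runx1 0.81 (adjusted p = 0.00119). The values of Cd8a and Cd8b1 rest on few UMIs in iNKT2-like cells, 43, 17, 2 and 4 for Cd8b1. Without C57BL/6 replicate 1 the value of Cd8a was -2.92 and did not pass (adjusted p = 0.0793).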

How the results depend on the processing

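Of 551 values under alternative settings, 424 kept their direction, side of the threshold or size, and the others follow. Settings of single clusters, of late and other iNKT1-like cells apart, and of shares with no correction were chosen after seeing the data. The cause of these changes was not tested, beyond fewer samples or genes where a setting removes them. With no correction between libraries the classes held other cells: stage 0-like took in a Tnni1 and Htra3 cluster (1028 cells) beside the Itm2a cluster (1235), and cycling-like was a Hist1h2ap cluster alone (535 cells), an Il13 and Ccnb2 cluster (1627) being unnamed. Where 1 mouse of a genotype was left out, the lone sample is assumed to vary like the others.

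Cd4 passed in stage 0-like cells with no correction between libraries (-1.44) and in iNKT2-like cells with no low-count filter (-1.12), in the fit with a replicate block (-1.11) and in DESeq2 (-1.12). It was lost in cycling-like cells with no correction (-1.46) and in their Hist1h2ap cluster (-1.12), and in the Ccl5 cluster (-3.36) and all late cells (-3.39) of the iNKT1-like class. Cd8a reversed in stage 0-like cells (-0.50) and in cycling-like cells (-0.15) with no correction and in the Hist1h2ap cluster (-0.34), passed in cycling-like cells with no filter (1.77), the replicate block (1.95) and DESeq2 (1.85), and was lost in the Ccl1 cluster of iNKT1-like cells (2.95). Cd8b1 passed in iNKT2-like cells with no filter (-2.44) and reversed in iNKT1-like cells outside the late group (-0.43). Runx1 reversed in stage 0-like cells with no correction (-0.30) and was lost in the Ccl5 (-0.48) and Ccl1 (-1.09) clusters and late cells (-0.30). Runx3 was lost in cycling-like cells with no correction (1.38) and in the Hist1h2ap cluster (0.63), reversed and passed in stage 0-like cells with no correction (2.61), and reversed in iNKT1-like cells outside the late group (-0.015).

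Differences against iNKT1-like cells passed for Cd4 in cycling-like cells at resolution 0.4 (0.83) and 1.2 (0.85) and for Cd8a there at 1.2 (-1.88), and Cbfb was lost there at 0.4 (0.34). Between Cd4-positive and Cd4-negative cells, Zbtb7b reversed in iNKT1-like cells with no thinning (0.13) and in the Fgl2 cluster alone (0.12), and Runx3 passed in iNKT2-like cells with no thinning (-0.55), where deeper cells are called positive more often. Zbtb7b was lost between Cd8a-positive and Cd8a-negative late cells (-3.03).

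Leaving out each mouse gave ranges of -2.09 to -1.51 for Cd4 in cycling-like, -1.33 to -0.93 in iNKT2-like and -2.34 to -2.04 in all cells, of -0.255 to 0.40 for Cd8a in stage 0-like, 1.25 to 2.66 in cycling-like and 1.79 to 2.34 in all cells, of -1.40 to -1.07 for Runx1 in iNKT1-like cells, and of 0.93 to 1.49, -0.46 to 0.49, -0.0421 to 0.41 and -0.16 to 0.18 for Runx3 in cycling-like, stage 0-like, iNKT2-like and iNKT1-like cells. Against iNKT1-like cells they were 1.49 to 1.84 (stage 0-like) and 0.51 to 1.03 (cycling-like) for Cd4, -2.48 to -0.89 (cycling-like) and -4.70 to -2.92 (iNKT2-like) for Cd8a, and 0.75 to 1.01 for Runx1 in cycling-like cells. For Runx3 between Cd4-positive and Cd4-negative iNKT2-like cells the range was -0.72 to 0.072.

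Genes called between genotypes numbered 32, 387, 28, 5 and 61 in stage 0-like, cycling-like, iNKT2-like, iNKT17-like and iNKT1-like cells and 94 in all cells. With no low-count filter they were 152, 1147, 329, 89, 430 and 965. With the replicate block they were 134, 50, 31, 166 and 212 in the same order without cycling-like cells. DESeq2 gave 60, 131 and 402 in iNKT2-like, iNKT1-like and all cells. No correction gave 288, 169 and 114 in stage 0-like, cycling-like and iNKT1-like cells, resolution 0.4 gave 47 and 93 in iNKT2-like and iNKT1-like cells, and 720 in place of 433 for the difference of iNKT2-like against iNKT1-like cells, and resolution 1.2 gave 8 in iNKT17-like cells. Without each mouse they ranged from 43 to 304, 44 to 425, 0 to 66, 6 to 71, 17 to 276 and 14 to 112, and from 261 to 379 and 162 to 989 for the differences of stage 0-like and cycling-like against iNKT1-like cells. The Cd4-positive fits called 25 genes in iNKT1-like cells (12 at 1000 UMIs, 162 with no thinning, 13 to 22 without each mouse) and 2 in iNKT2-like cells (0, 48, and 0 to 2).

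Differences in the Cd4-positive share were -3.34 percentage points in stage 0-like cells with no thinning, -4.05, -30.9 and -2.75 in cycling-like cells at 1000 UMIs, with no thinning and with no correction, -15.4 in iNKT2-like cells with no thinning, and -1.90, -6.96, -5.26, -4.03, -5.45 and -4.21 in iNKT1-like cells at 1000 UMIs, with no thinning, at resolution 0.4 and 1.2, with no correction and with the highest doublet scores removed. Those in the Cd8a-positive share were -0.46 in stage 0-like cells at 1000 UMIs, 0.30 and 2.92 in cycling-like cells and 1.36 and 4.08 in iNKT1-like cells at 1000 UMIs and with no thinning.

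No label says whether mice of the same replicate number were handled together. With 2 pairs, deviations of same-numbered libraries correlated at 0.12 to 0.17 in the 5 classes and at 0.0009 in all cells, so the fit with the replicate block is an alternative. It changed no other call of a member than those named. Depth limits Cd4, Zbtb7b and Runx3 in stage 0-like cells, where a library held 2 to 36 UMIs of each.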
